A study of Mus musculus with 10 samples.

Results

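Nuclear genes whose products build the mitochondrial respiratory chain and the ATP synthase were examined in cortical RNA from 5XFAD mice with and without neuronal Idol. The genes were chosen by symbol among protein-coding mouse genes, taking those that begin with Nduf (complex I), the 4 Sdh subunit genes (complex II), Uqcr (complex III), Cox followed by 4 to 8 and a further letter or digit (complex IV) and Atp5 (complex V). This gave 96 of the 53700 gene identifiers counted, and 93 of them had a total count over 10 and were among the 19268 genes tested. The other 3, Cox8c, Ndufb11b and a second Atp5po identifier that spans a neighbouring gene, had 0 counts. One of the 93, Cox5b-ps, has the name of a pseudogene and was counted only 43 times, so that 92 genes were placed in a complex. The symbol rule leaves out Cox4i1, Cox4i2, Cyc1 and cytochrome c itself (Cycs), which are given separately.

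Complexes I to V of the inner mitochondrial membrane carry out oxidative phosphorylation. Complex I oxidises NADH and complex II oxidises succinate, both passing electrons to ubiquinone, complex III passes them on to cytochrome c, and complex IV reduces oxygen. Complexes I, III and IV pump protons, and complex V, the ATP synthase, uses the proton gradient to make ATP, on which neurons depend heavily for ion pumping and synaptic transmission. Most subunits are made from nuclear genes and imported, a few core subunits of complexes I, III, IV and V are encoded in mitochondrial DNA, and complex II is wholly nuclear.

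The 10 libraries came from the cerebral cortex of female mice aged 4 months, all of which carried the 5XFAD transgenes, a model of the amyloid deposits of Alzheimer's disease. In 5 of them, labelled 5XFAD;Neu cKO, floxed Idol was to be removed by Camk2a-Cre, which acts after birth mainly in excitatory neurons of the forebrain, so that other cells of the tissue keep the gene. The other 5, labelled 5XFAD, were littermates labelled wild type for this cross, and no library came from a mouse without the 5XFAD transgenes. The comparison asks how these transcripts stood in 5XFAD cortex when neuronal Idol, an E3 ubiquitin ligase for lipoprotein receptors, was targeted. A negative log2 change means a lower level in 5XFAD;Neu cKO.

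Mylip, the gene of IDOL, did not separate the groups. In CPM, the reads of a gene relative to the scaled total of its library, its level was 11.2 ± 2.27 in 5XFAD (SD, n = 5) and 14.8 ± 4.90 (SD, n = 5) in 5XFAD;Neu cKO, the reverse of the direction that the labels give (log2 change 0.39, adjusted p = 0.777, edgeR), and reads from the 3′ end need not show a deletion elsewhere in the gene. The groups are therefore those of the libraries as labelled. All 6 excitatory neuron markers were tested, with a summed level of 3974 to 4861 CPM in 5XFAD and 3815 to 4331 CPM in 5XFAD;Neu cKO, and none was listed at 0 in any library. Counts on genes ranged from 4320504 to 7466192 per library, of which the respiratory chain genes took 1.01% to 1.148%. In bulk tissue, fewer cells of a type and less RNA per cell cannot be told apart.

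The respiratory chain genes were mostly well expressed, and no single gene passed the test. Their mean level ran from 0.267 to 540.1 CPM with a median of 97.1, against a median of 7.97 CPM over all genes tested. None of the 93 had an adjusted p under 0.05 in edgeR's quasi-likelihood test, where 0.218% of all genes did (42 of 19268), and DESeq2 called none either. An unadjusted p under 0.05 was reached by 13 genes (13.98%) in edgeR, against 7.95% of all genes. Of these 13, 6 were lower in 5XFAD;Neu cKO (all genes 4.01%) and 7 were higher (all genes 3.94%). Among genes with a mean of at least 20 counts per library, the shares were 15.1% of 86 respiratory chain genes and 9.14% of all 12073. DESeq2 also gave 13, with no share of all genes beside it. In none of the 93 did all 5 libraries of one group lie on one side of all 5 of the other, which held for 1.30% of all genes. Estimates below 0 numbered 57 and above 0 numbered 36, so that 61.3% lay below 0 against 50.1% of all genes. The median change was −0.056, against −0.00056 over all genes.

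How small a change these libraries could have shown depended on the counts. For 75 of the 86 genes with a mean of at least 20 counts per library, the 95% interval of the change lay wholly within 1.5-fold in either direction, and the median standard error was 0.10. Over all genes tested this was true of 34.0%, and of 80.6% of the 93. The other 7 genes, Atp5mc2, Cox5b-ps, Cox6b2, Cox7a1, Cox7b2, Cox8b and Ndufa4l2, had 16 to 107 counts in all 10 libraries together and standard errors of 0.65 to 1.51, so that nothing short of a several-fold difference was detectable in them. Among the 86, 5 genes were estimated lower and 8 higher by more than 1.2-fold.

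**Figure D1:**
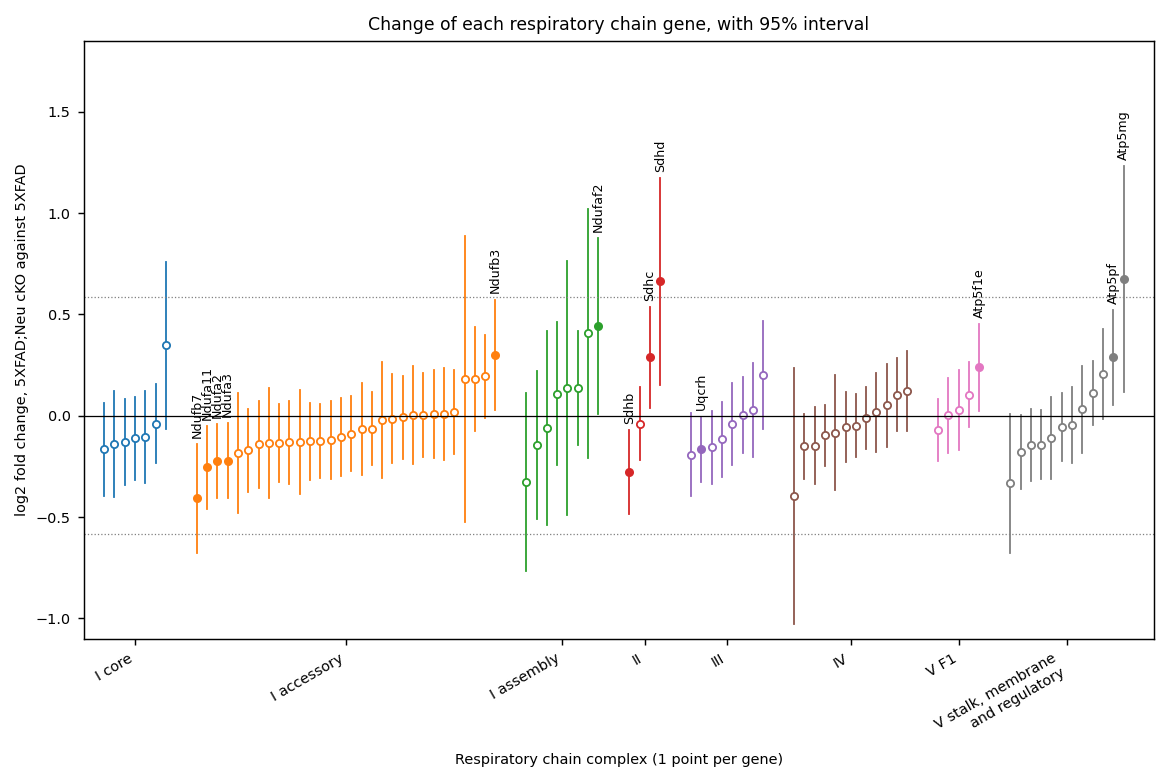
Change of each respiratory chain gene with a mean of at least 20 counts per library, as log2 fold change of 5XFAD;Neu cKO against 5XFAD (n = 5 per group), ordered within each complex. Bars are 95% intervals, filled points are the 13 genes with an unadjusted p under 0.05, none of which passed adjustment, and dotted lines mark 1.5-fold. Most subunits of complex I lie just below 0, whereas the 4 subunits of complex II are spread on both sides.

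One library was low in these genes, and not in these alone. In 5XFAD replicate 5, 74 of the 86 genes (86.0%) were below the mean of the other 4 libraries of its group, with a median difference of −0.23 on the log2 scale, while 50.5% of all genes were. In the other 9 libraries this share was between 26.7% and 53.5%. The same library had the smallest total, 4320504, and the highest share of reads on no gene, 39.9% against 31.3% to 38.2% in the other 9. It was also the lowest of its group in the summed level of other gene lists, at 43576 CPM for subunits encoded in mitochondrial DNA (51155 to 54431 in the other 4), 1157 CPM for the citrate cycle and pyruvate dehydrogenase (1235 to 1331), 12680 CPM for cytosolic (13693 to 16086) and 1490 CPM for mitochondrial ribosomal protein genes (1551 to 1672). The part of these properties in its low values was not tested. Without it, 67 of the 93 genes were lower in 5XFAD;Neu cKO, the median was −0.091, and still no gene passed adjustment.

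**Figure D2:**
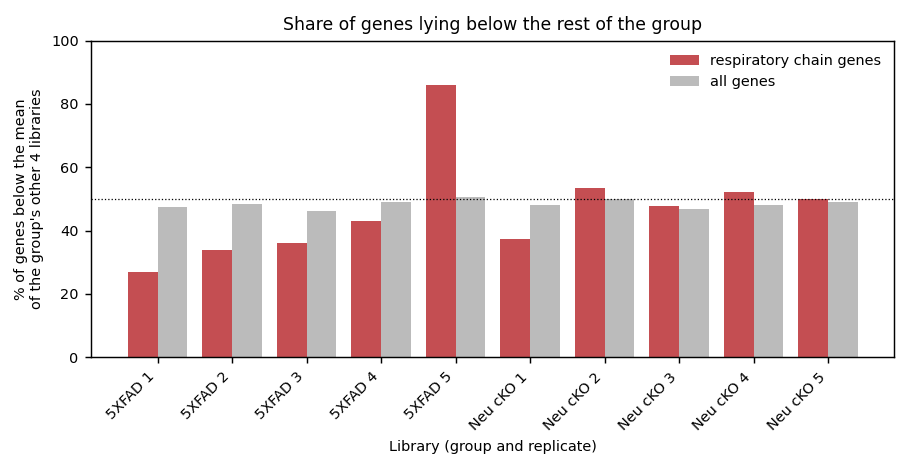
Share of genes in each library that lay below the mean of the other 4 libraries of its group (y axis, percent), for the 86 respiratory chain genes (red bars) and for all genes with a mean of at least 20 counts per library (grey bars). 5XFAD replicate 5 reaches 86.0% for the respiratory chain genes and 50.5% for all genes, and the dotted line marks 50%.

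The genes varied together across libraries, and less so without that library. After group means were removed, the level of each of the 86 genes was correlated with the mean of the other 85 over the 10 libraries, as a description of points that share library, depth and tissue piece. The correlation was above 0 for 74 genes and above 0.5 for 43, with a median of 0.51. Between pairs of the 86 genes the median correlation was lower, 0.22. It was −0.00025 between pairs drawn from every 5th gene with a mean of at least 20 counts per library. Uqcrh (0.85), Ndufab1 (0.81) and Atp5pd (0.80) were most like the rest, and Ndufs1 (−0.65), Ndufaf4 (−0.59) and Ndufaf1 (−0.42) least. This order rested on 5XFAD replicate 5. With its column left out the median was 0.21 and 6 genes were above 0.5. Uqcrh was then at 0.30, Atp5pd at 0.31, Ndufab1 at 0.53 and Ndufs1 at −0.30. Atp5f1b (0.68) was then highest and Ndufb2 (−0.44) lowest, both named after their values were seen. The median over pairs of genes was then 0.057. The group mean removed from the 5XFAD libraries still included replicate 5. The values with its column left out are therefore not free of that library.

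Promoter sequences are shown for 4 genes on which the following paragraphs turn. Sdhb and Sdhd encode subunits of complex II whose estimates differ in sign, Uqcrh was most like the rest of the set when all 10 libraries were used, and Cox6a1 had the highest level. Each line gives 250 bases before to 50 after the transcription start from RefSeq on GRCm38.p6, an older build than that of the counts, read 5′ to 3′ on the strand of the gene. Capitals mark matches on either strand to a motif for NRF1 (GCGCANGCG), the ETS family that includes GABP (CCGGAAG), YY1 (AAGATGGCG) or Sp1 (GGGCGGG), factors known for promoters of respiratory chain genes. The windows are chr4:140961021-140961320, plus strand, for Sdhb, chr9:50603800-50604099, minus strand, for Sdhd, chr4:116075021-116075320, minus strand, for Uqcrh, and chr5:115348909-115349208, minus strand, for Cox6a1.
Sdhb: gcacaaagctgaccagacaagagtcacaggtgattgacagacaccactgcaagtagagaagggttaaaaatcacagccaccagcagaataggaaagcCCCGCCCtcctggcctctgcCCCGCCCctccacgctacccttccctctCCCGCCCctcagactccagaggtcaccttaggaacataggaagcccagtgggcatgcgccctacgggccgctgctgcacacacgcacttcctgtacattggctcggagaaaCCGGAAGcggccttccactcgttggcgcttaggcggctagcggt
Sdhd: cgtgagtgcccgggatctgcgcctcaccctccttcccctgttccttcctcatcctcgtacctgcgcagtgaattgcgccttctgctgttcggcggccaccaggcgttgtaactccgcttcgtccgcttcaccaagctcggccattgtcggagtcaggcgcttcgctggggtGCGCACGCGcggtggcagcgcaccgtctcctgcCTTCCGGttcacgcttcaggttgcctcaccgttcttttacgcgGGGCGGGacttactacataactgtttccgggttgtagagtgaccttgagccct
Uqcrh: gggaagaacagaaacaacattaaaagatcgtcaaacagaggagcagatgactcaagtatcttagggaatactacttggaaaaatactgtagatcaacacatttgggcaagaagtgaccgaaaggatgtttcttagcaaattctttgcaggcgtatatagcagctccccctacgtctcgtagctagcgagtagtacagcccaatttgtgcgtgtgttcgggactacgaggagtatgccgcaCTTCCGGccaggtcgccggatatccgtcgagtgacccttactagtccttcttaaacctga
Cox6a1: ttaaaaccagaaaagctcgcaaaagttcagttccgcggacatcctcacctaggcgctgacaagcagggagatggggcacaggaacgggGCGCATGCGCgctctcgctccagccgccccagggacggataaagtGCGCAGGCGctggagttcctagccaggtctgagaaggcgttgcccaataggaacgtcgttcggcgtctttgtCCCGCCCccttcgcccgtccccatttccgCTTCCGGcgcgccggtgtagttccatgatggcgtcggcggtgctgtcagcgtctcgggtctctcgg

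Sdhb had 3 Sp1 matches and 1 ETS match, Sdhd 1 each of NRF1, ETS and Sp1, Uqcrh 1 ETS match, and Cox6a1 3 NRF1 matches, 1 ETS and 1 Sp1 match, with 2 of its NRF1 matches being the same stretch read on both strands. The ETS and YY1 motifs can overlap, since the first ends and the second begins with the same letters. Promoters were matched for 76 of the 93 genes. The NRF1 motif was in 27.6% of them, against 6.47% of all 27025 promoters of this length and 8.83% of the 17491 of protein-coding genes. The ETS motif was in 22.4% (all 9.12%, protein-coding 11.9%), YY1 in 9.21% (1.49%, 1.94%) and Sp1 in 35.5% (25.8%, 34.0%).

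The changes of the genes were also set out by motif, as a description with no test. The median was −0.040 in the 21 genes with the NRF1 motif and −0.056 in the 55 without, and −0.097 in the 17 with the ETS motif and −0.040 in the 59 without. For YY1 the medians were −0.020 in 7 genes and −0.061 in 69, and for Sp1 −0.040 in 27 and −0.056 in 49.

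Most subunits of complex I had estimates below 0, none of which passed the test. Of the 7 core subunits, which carry the flavin and iron-sulfur clusters, 6 had estimates below 0 (median −0.11), and of the 30 accessory subunits, which surround the core, 21 had (median −0.096). Their summed level was 3654 ± 267 CPM in 5XFAD and 3449 ± 63.7 CPM in 5XFAD;Neu cKO (SD, n = 5), with ranges of 3231 to 3926 CPM and 3391 to 3554 CPM. The ranges overlapped only through 5XFAD replicate 5, at 3231 CPM. The other 5XFAD libraries, at 3576 CPM or more, lay above every 5XFAD;Neu cKO library. No core subunit had an unadjusted p under 0.05, and 5 of the 30 accessory subunits (16.7%) had, against 7.95% of all genes. Of these, 4 were lower, against 4.01% of all genes. Without 5XFAD replicate 2 the medians were −0.059 for the core and −0.046 for the accessory subunits, and without 5XFAD replicate 5 they were −0.15 and −0.13.

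Ndufb7 (ENSMUSG00000033938, chromosome 8 from 84293300 to 84298255 of GRCm39), an accessory subunit of the membrane arm, had the lowest adjusted p of all 93 genes. It measured 68.0, 67.8, 55.4, 59.7 and 47.4 CPM in 5XFAD replicates 1 to 5 and 50.7, 37.2, 36.6, 44.4 and 55.9 CPM in 5XFAD;Neu cKO replicates 1 to 5. The groups overlapped, with 5XFAD;Neu cKO replicates 1 and 5 above 5XFAD replicate 5, the latter of them also above 5XFAD replicate 3, and the other 3 5XFAD;Neu cKO libraries below every 5XFAD library. The change was −0.41 (SE, the standard error, 0.13, adjusted p = 0.310, edgeR), and it stayed between −0.50 and −0.34 when any library was left out.

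Ndufa11, a membrane arm subunit, measured 107, 108, 105, 99.0 and 86.4 CPM in 5XFAD and 77.6, 83.5, 88.5, 87.8 and 86.2 CPM in 5XFAD;Neu cKO, a change of −0.25 (SE 0.10, adjusted p = 0.465, edgeR). Only 5XFAD replicate 5 reached down into the range of the other group. Ndufa3 changed by −0.22 (SE 0.09, adjusted p = 0.504, edgeR), from 166 ± 18.8 to 142 ± 10.4 CPM, and again 5XFAD replicate 5, at 135 CPM, was the lowest of its group. Ndufa2 changed by −0.22 (SE 0.09, adjusted p = 0.480, edgeR), from 158 ± 11.3 to 135 ± 10.7 CPM (SD, n = 5). Ndufb3, another membrane arm subunit, was estimated higher, with 77.7, 37.3, 78.5, 53.9 and 51.6 CPM in 5XFAD and 63.2, 70.8, 83.4, 75.2 and 77.7 CPM in 5XFAD;Neu cKO. Its change of 0.30 (SE 0.14, adjusted p = 0.545, edgeR) became 0.18 without 5XFAD replicate 2, its lowest library, and Hycc2, which overlaps it on the opposite strand, had more counts.

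Among core subunits the largest estimates were those of Ndufs3, 0.35 (SE 0.21), and Ndufs7, −0.16 (SE 0.11), both subunits of the peripheral arm in the matrix. Ndufs7 measured 65.1 to 71.996 CPM in 5XFAD and 54.5 to 66.4 CPM in 5XFAD;Neu cKO, with only 5XFAD;Neu cKO replicate 1 as high as the other group (adjusted p = 0.819, edgeR). Ndufv2, the core subunit with the highest level, hardly moved, at 104 ± 5.64 and 101 ± 3.99 CPM (log2 change −0.04, 95% interval −0.24 to 0.15). The same held for Ndufb9, the most abundant accessory transcript, at 237 ± 31.0 and 227 ± 21.6 CPM (log2 change −0.06, 95% interval −0.24 to 0.12).

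The 8 complex I assembly factors, which build the complex but are not part of it, had 3 estimates below 0 and 5 above, with a median of 0.12, which was 0.066 without 5XFAD replicate 5 and 0.16 without 5XFAD replicate 3. Their summed level was 147 ± 7.90 CPM in 5XFAD and 155 ± 9.69 CPM in 5XFAD;Neu cKO. Ndufaf2 measured 28.1, 15.7, 14.9, 11.6 and 8.98 CPM in 5XFAD and 21.5, 24.1, 18.1, 23.6 and 20.8 CPM in 5XFAD;Neu cKO. All 5 of the latter were above 4 5XFAD libraries and below 5XFAD replicate 1. The change was 0.44 (SE 0.22, adjusted p = 0.617, edgeR), 0.75 without 5XFAD replicate 1 and 0.30 without 5XFAD replicate 5, and Smim15, which overlaps it on the opposite strand, had more counts. Ndufaf1 was estimated at 0.41 (SE 0.31) and Ndufaf5 at −0.33 (SE 0.22), with both intervals crossing 0. Ndufaf4, the assembly factor with the highest level, measured 43.3 ± 8.09 CPM in 5XFAD and 47.7 ± 7.53 CPM in 5XFAD;Neu cKO (SD, n = 5), a change of 0.14 (SE 0.14).

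**Figure D3:**
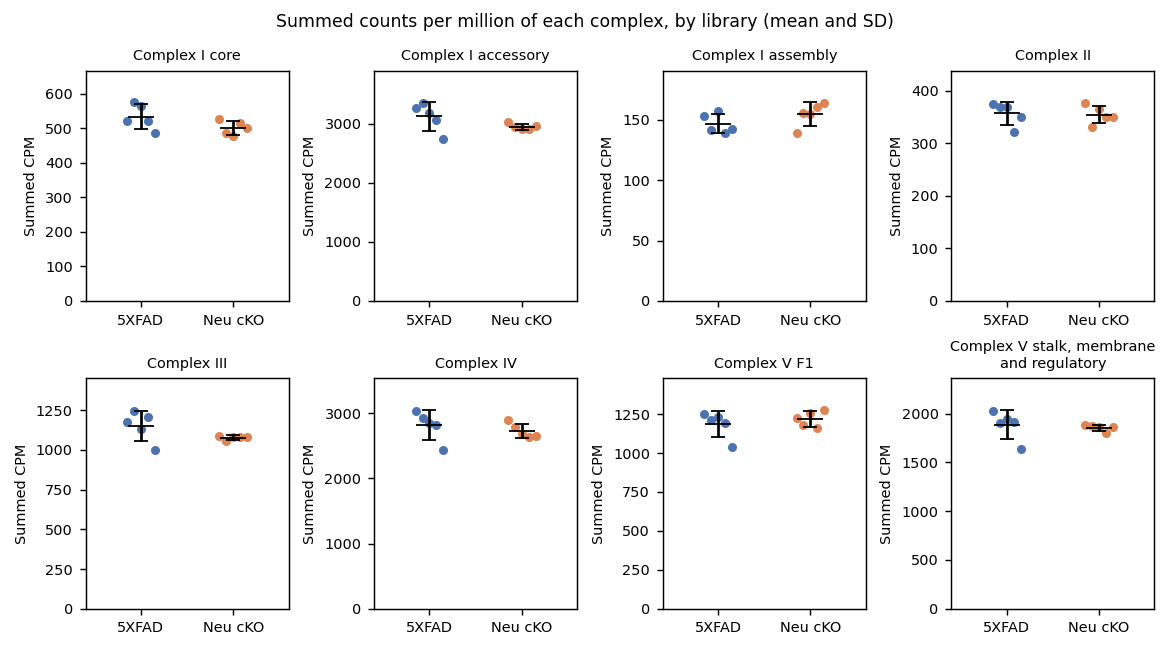
Summed CPM of the transcripts of each complex (y axis, from 0) in each library of 5XFAD and 5XFAD;Neu cKO, with the mean and SD of 5 libraries per group. In 6 of the 8 panels the lowest 5XFAD point is replicate 5, the last point of its group, and in each panel the groups overlap.

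The genes of complex II did not share a direction. Its 4 subunits are the flavoprotein Sdha, the iron-sulfur protein Sdhb and the membrane anchors Sdhc and Sdhd. Sdha measured 159.9 ± 8.20 CPM in 5XFAD and 156 ± 12.6 CPM in 5XFAD;Neu cKO (log2 change −0.04, 95% interval −0.22 to 0.14). Sdhb was estimated lower, Sdhc and Sdhd higher, and the summed level of the 4 was 357 ± 21.3 and 354 ± 16.9 CPM (SD, n = 5).

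Sdhb (ENSMUSG00000009863, chromosome 4 from 140688502 to 140709380 of GRCm39) measured 123, 146, 110.2, 97.1 and 132 CPM in 5XFAD and 109.6, 96.4, 106, 94.1 and 94.4 CPM in 5XFAD;Neu cKO. Only 5XFAD replicate 4 lay within the range of the other group. The change was −0.28 (SE 0.10, adjusted p = 0.436, edgeR), and between −0.35 and −0.21 when any library was left out. Sdhc (ENSMUSG00000058076, chromosome 1 from 170954732 to 170978223) measured 63.2, 50.7, 72.7, 58.9 and 43.5 CPM in 5XFAD and 66.0, 71.5, 60.5, 79.4 and 77.1 CPM in 5XFAD;Neu cKO. The change was 0.29 (SE 0.12, adjusted p = 0.526, edgeR), with 3 of the 5XFAD libraries below all of the other group.

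Sdhd (ENSMUSG00000000171, chromosome 9 from 50507642 to 50515195 of GRCm39) varied most of the 4 relative to its level. It measured 31.6, 3.52, 24.6, 18.1 and 8.98 CPM in 5XFAD and 26.2, 17.7, 35.4, 30.8 and 29.2 CPM in 5XFAD;Neu cKO. The low values were those of 5XFAD replicates 2 and 5, and 5XFAD replicate 1 was above 4 of the 5 libraries of the other group. The change was 0.66 (SE 0.25, adjusted p = 0.445, edgeR; exact two-sided permutation test p = 0.127), and 0.41 without 5XFAD replicate 2. Timm8b overlaps Sdhd on the opposite strand and had more counts, 4724 against 1388 in all libraries.

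Complex III, which moves electrons from ubiquinol to cytochrome c, had 5 of its 8 subunits estimated lower (median −0.079, −0.027 without 5XFAD replicate 2 and −0.13 without 5XFAD replicate 5). The summed level was 1151 ± 96.4 CPM in 5XFAD and 1077 ± 13.0 CPM in 5XFAD;Neu cKO. 5XFAD replicate 5, at 996 CPM, lay below the 5XFAD;Neu cKO libraries (1056 to 1090 CPM), and the other 5XFAD libraries lay above them (1132 to 1247 CPM). Uqcrh, the hinge protein (ENSMUSG00000063882, chromosome 4 from 115923314 to 115932296 of GRCm39), measured 289.9, 304, 287, 290.1 and 250.5 CPM in 5XFAD and 252.01, 253, 256, 254 and 255 CPM in 5XFAD;Neu cKO. The 5XFAD;Neu cKO libraries were within a few CPM of each other, 4 of the 5XFAD libraries were above them and 5XFAD replicate 5 was just below. The change was −0.16 (SE 0.08, adjusted p = 0.616, edgeR). Uqcr11 had the lowest estimate of the complex, −0.19 (SE 0.10), and the Rieske iron-sulfur protein Uqcrfs1 the highest, 0.20 (SE 0.13), neither with an adjusted p under 0.672 (edgeR).

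Complex IV, cytochrome c oxidase, had 11 of its 17 tested genes estimated lower (median −0.054, −0.093 without 5XFAD replicate 5 and −0.026 without 5XFAD;Neu cKO replicate 2), and none had an unadjusted p under 0.05. The summed level was 2816 ± 228 CPM in 5XFAD and 2733 ± 111 CPM in 5XFAD;Neu cKO. Cox6a1, whose promoter is printed above, was at 598, 596, 547, 577 and 473 CPM in 5XFAD and 551, 543, 504, 519 and 493 CPM in 5XFAD;Neu cKO (log2 change −0.10, 95% interval −0.25 to 0.05). Cox7a2 measured 309 ± 16.9 and 278 ± 14.8 CPM (log2 change −0.15, 95% interval −0.31 to 0.01, adjusted p = 0.666, edgeR), and Cox7b 128 ± 15.9 and 139 ± 14.6 CPM (log2 change 0.12, 95% interval −0.08 to 0.32).

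Several complex IV subunits exist as pairs, a widespread form and a form known from heart and skeletal muscle, and in these libraries the muscle forms had few counts. A 3′ count does not grow with transcript length, so CPM values of different genes are set side by side here. Reads that align to several places were not counted, so a low value need not be a low level of the transcript. Cox6a2 measured 9.41 ± 3.75 CPM in 5XFAD and 7.20 ± 1.88 CPM in 5XFAD;Neu cKO beside the values above 470 CPM of Cox6a1, and its 5XFAD values were 11.05, 11.03, 12.4, 9.69 and 2.92 CPM. Cox7a1 was at 2.30 ± 1.07 and 1.17 ± 0.893 CPM, while Cox7a2l, a related factor of supercomplexes, was at 45.6 ± 9.09 and 43.0 ± 5.54 CPM. Cox7b2, a relative of Cox7b, was at 0 to 0.272 CPM in 5XFAD and 0 to 3.28 CPM in 5XFAD;Neu cKO. Cox8b was listed at 0 in 4 libraries and at most at 1.12 CPM, while Cox8a was at 426 ± 29.7 and 422 ± 29.2 CPM. The testis form Cox6b2 was at 2.35 ± 0.977 and 1.52 ± 0.813 CPM, and Cox6b1 at 199 ± 17.7 and 192 ± 10.4 CPM. Ndufa4, first named as a complex I subunit and now placed in complex IV, was at 123 ± 21.3 and 127 ± 8.37 CPM, and its relative Ndufa4l2 at 1.05 ± 1.199 and 0.988 ± 0.606 CPM. Of these paired complex IV genes, none had an adjusted p under 0.629 (edgeR).

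**Figure D4:**
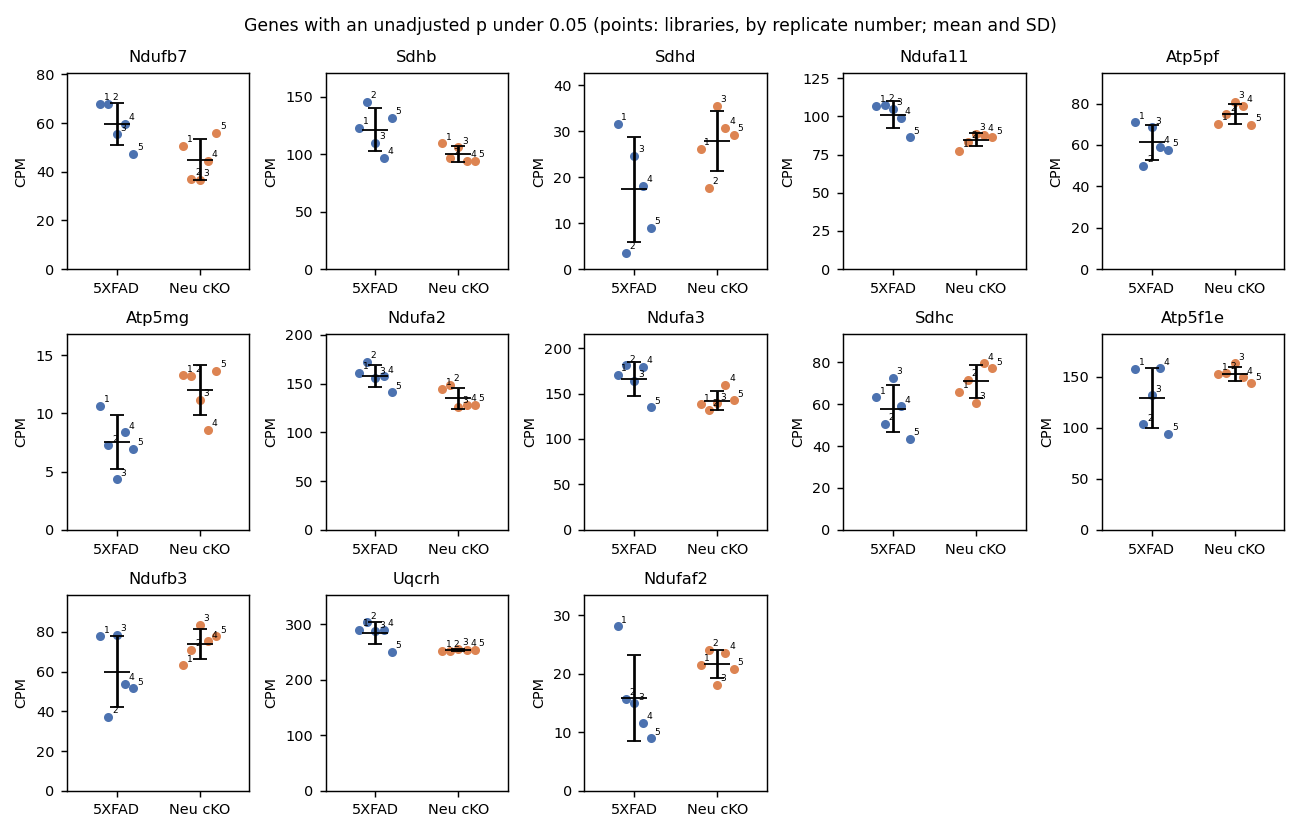
CPM (y axis, from 0) in each library for the 13 genes with an unadjusted p under 0.05, in order of that p, with replicate numbers beside the points and the mean and SD of each group of 5. The groups overlap in each panel. Uqcrh lies between 252.01 and 256 CPM in all 5XFAD;Neu cKO libraries, and Sdhd runs from 3.52 to 31.6 CPM in 5XFAD.

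Complex V showed no common direction. Of the 5 subunits of its catalytic F1 head, 1 was estimated lower and 4 higher (median 0.027, and between 0.0046 and 0.052 without 5XFAD;Neu cKO replicates 5 and 2 in turn), and of the 13 tested genes of the stalks, membrane part and regulators 7 were lower and 6 higher (median −0.044, 0.0049 without 5XFAD replicate 1 and −0.071 without 5XFAD replicate 3). The summed level of the complex was 3068 ± 232 CPM in 5XFAD and 3076 ± 69.9 CPM in 5XFAD;Neu cKO. The catalytic subunit Atp5f1b measured 419 ± 26.8 and 399 ± 20.4 CPM (log2 change −0.07, 95% interval −0.22 to 0.08), and Atp5f1a 399.7 ± 39.0 and 429 ± 37.7 CPM (log2 change 0.10, 95% interval −0.06 to 0.26).

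Of the 18 tested genes of complex V, 3 (16.7%) had an unadjusted p under 0.05, against 7.95% of all genes. All 3 were estimated higher (all genes 3.94%). Atp5f1e, the small epsilon subunit of the central stalk, measured 158, 103.5, 132, 158 and 94.5 CPM in 5XFAD and 153, 154, 163, 149.8 and 144 CPM in 5XFAD;Neu cKO (log2 change 0.24, SE 0.11, adjusted p = 0.544, edgeR), and 5XFAD replicates 1 and 4 were as high as the other group. Without 5XFAD replicate 5 its change was 0.15. Atp5pf, a peripheral stalk subunit, measured 70.9, 49.7, 68.5, 59.1 and 57.7 CPM in 5XFAD and 70.3, 74.9, 80.7, 78.7 and 69.7 CPM in 5XFAD;Neu cKO (log2 change 0.29, SE 0.12, adjusted p = 0.466, edgeR). Only 5XFAD replicate 1 reached into the range of the other group.

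Atp5mg, subunit g of the membrane part, was at lower levels, 10.7, 7.27, 4.35, 8.39 and 6.96 CPM in 5XFAD and 13.3, 13.2, 11.2, 8.58 and 13.6 CPM in 5XFAD;Neu cKO. Only 5XFAD replicate 1 and 5XFAD;Neu cKO replicate 4 kept the groups from being apart. The change was 0.68 (SE 0.28, adjusted p = 0.480, edgeR). The c subunit of the rotor ring is encoded by 3 genes, and Atp5mc3 supplied most of the reads, at 342 ± 25.2 and 369 ± 21.8 CPM (log2 change 0.11, 95% interval −0.05 to 0.27). Atp5mc1 was at 30.02 ± 5.45 and 23.9 ± 4.80 CPM (log2 change −0.33, SE 0.17, adjusted p = 0.653, edgeR), and Atp5mc2 at 0.356 ± 0.252 and 0.946 ± 0.738 CPM.

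**Figure D5:**
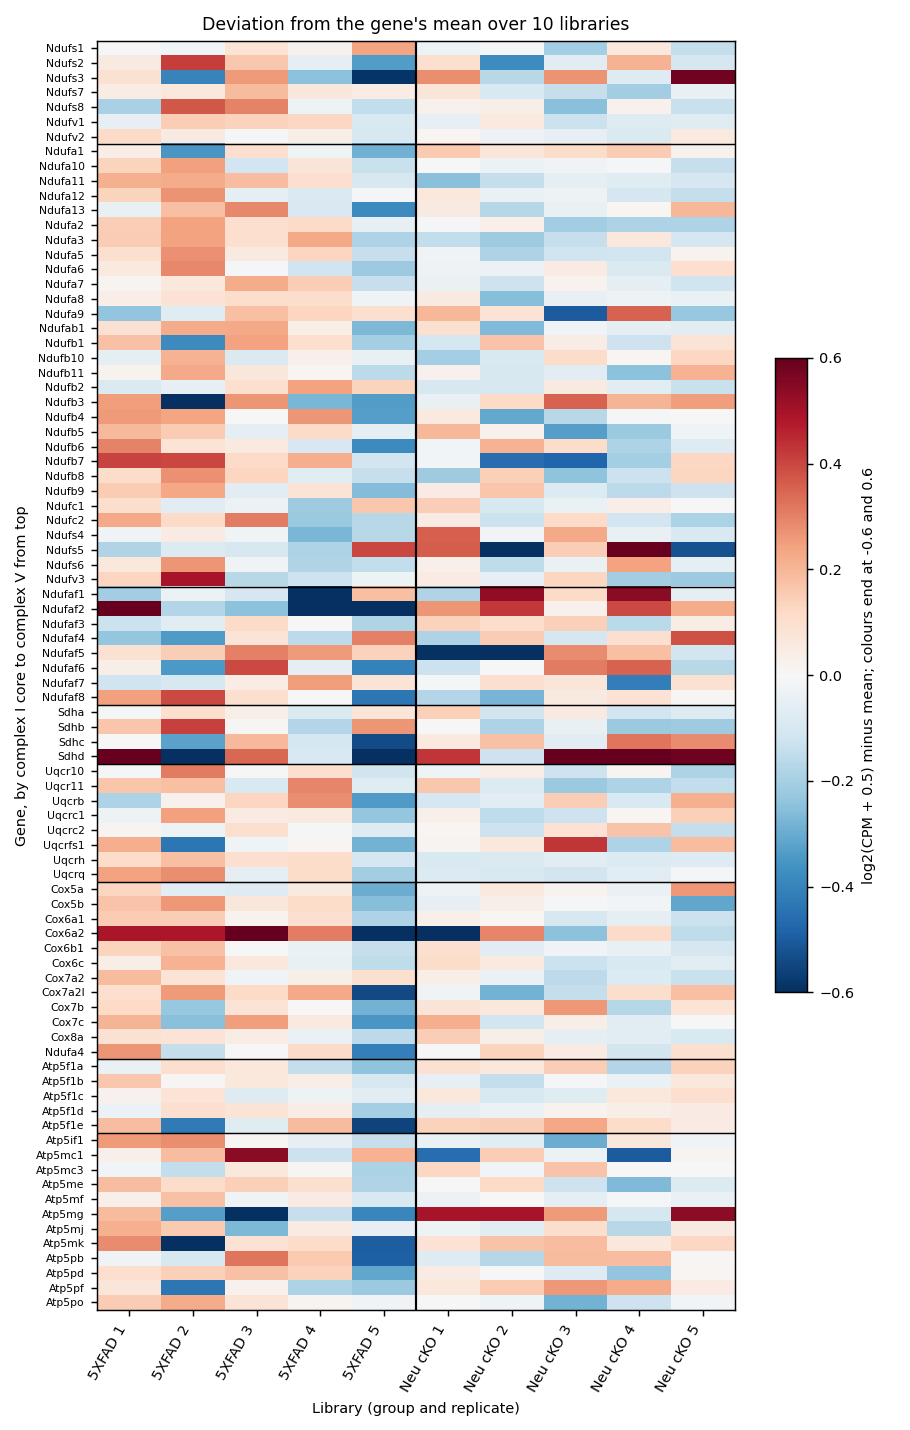
Deviation of log2(CPM + 0.5) from the mean over 10 libraries for the genes of complexes I to V (rows, black lines between groups of subunits) in each library (columns, 5XFAD replicates 1 to 5 and then 5XFAD;Neu cKO replicates 1 to 5). Blue is below and red above the mean of the gene, and colours end at −0.6 and 0.6. The column of 5XFAD replicate 5 is mostly blue, and the rows of complex II differ from each other.

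Genes of the same pathway that the symbol rule leaves out were compared in the same fit. Cox4i1, the largest nuclear subunit of complex IV, measured 526, 626, 529, 518 and 509.7 CPM in 5XFAD and 527, 437, 452, 486 and 449 CPM in 5XFAD;Neu cKO (log2 change −0.20, SE 0.08, adjusted p = 0.436, edgeR). Only 5XFAD;Neu cKO replicate 1 lay within the range of 5XFAD. Cyc1, the cytochrome c1 of complex III, changed by −0.21 (SE 0.10, adjusted p = 0.617, edgeR), from 94.4 ± 8.73 to 81.4 ± 4.92 CPM, and Cycs by −0.09 (SE 0.18). Cox4i2, the form induced by low oxygen, was counted 33 times in all libraries.

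The subunits encoded in mitochondrial DNA had no common direction either, with 5 of 9 tested genes lower and 4 higher (median −0.056). The other 4 of the 13 were not among the genes tested, which needed a total count over 10. An unadjusted p under 0.05 was found for 3 of the 9 (33.3%, against 7.95% of all genes), 2 lower and 1 higher. The lowest estimate among them was −3.19, in a gene that did not pass adjustment. One of the 9, mt-Nd3, a complex I subunit, passed the test, with 1.74, 13.8, 1.63, 1.12 and 0.224 CPM in 5XFAD and 94.6, 4.60, 99.8, 84.0 and 90.5 CPM in 5XFAD;Neu cKO (log2 change 4.45, SE 0.43, adjusted p = 2.59e-10, edgeR). Replicate 2 of each group stood apart. How many reads are placed on a mitochondrial gene can depend on the mitochondrial sequence a mouse carries, so these values may not be levels of the transcript, and this was not tested here. Of 41 assembly factors of complexes I to V beyond the Nduf symbols, 21 were lower and 20 higher (median −0.012), and of 16 enzymes of the citrate cycle and pyruvate dehydrogenase 7 were lower and 9 higher (median 0.10). Neither list held a gene past adjustment, and an unadjusted p under 0.05 was found for 5 assembly factors (12.2%) and 0 enzymes, against 7.95% of all genes. Of 10 regulators of mitochondrial gene expression, 5 were lower and 5 higher (median 0.035), with 0 past either threshold. The coactivator Ppargc1a measured 81.7 ± 12.5 and 80.7 ± 7.29 CPM (log2 change −0.02, 95% interval −0.24 to 0.21), Nrf1 16.6 ± 1.87 and 17.6 ± 5.46 CPM (0.09, −0.34 to 0.51) and Tfam, which packages mitochondrial DNA, 20.4 ± 5.07 and 22.7 ± 5.66 CPM (0.16, −0.23 to 0.55). Esrra, a nuclear receptor, and Gabpa, an ETS factor, changed by −0.11 (SE 0.22) and −0.03 (SE 0.35).

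Markers of several cell types moved with the groups, and their part in the values above was not tested. All 6 microglial markers were lower in 5XFAD;Neu cKO (median −0.47, 2 past adjustment), with a summed level of 271 to 366 CPM in 5XFAD and 214 to 244 CPM in 5XFAD;Neu cKO. All 6 oligodendrocyte markers were lower, at 1903 to 2793 and 1714 to 2699 CPM. Their median was −0.28, with 0 past adjustment and 4 (66.7%) at an unadjusted p under 0.05 (edgeR), against 7.95% of all genes. All 4 red cell globin genes were higher (median 1.91, 2 past adjustment), at 5.40 to 51.4 and 46.3 to 208.6 CPM. The 6 excitatory markers had a median of −0.065, the 6 inhibitory markers 0.0077, the 5 astrocyte markers −0.13, the 3 oligodendrocyte precursor markers 0.033 and the 4 endothelial markers 0.055, with 0 past adjustment. Among these 5 lists, an unadjusted p under 0.05 (edgeR) was found for 2 astrocyte markers, both lower, and 2 inhibitory markers, 1 lower and 1 higher. Of the 5 astrocyte markers, 4 were lower. Abundant nuclear RNAs such as Malat1 had a median of 0.14 and were highest in 5XFAD replicate 5, at a sum of 18672 CPM against 11591 to 17048 CPM in the other 9 libraries.

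Some of these counts cannot be assigned with certainty. Of the 93 genes, 42 overlap another tested gene, 2 on the same strand and 41 on the opposite strand, and for 8 of them the overlapping gene had more counts, as for Sdhd, Ndufb3, Ndufaf2 and Ndufs1. The strand setting of the counting is not stated. Named pseudogenes of the set, 14 in all, had 227 counts together and 98 at most. Alignments to several places were left out of the counts. Per counted read they numbered 3.10 to 3.98 in 5XFAD and 2.76 to 3.34 in 5XFAD;Neu cKO. Reads shared by a gene and a copy would be among them, so the pseudogene counts cannot show how many reads the genes lost. Their part in the values above was not tested.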

How the data were processed

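Cortical RNA of 10 mice was measured with QuantSeq 3′ libraries. The authors trimmed reads with bbduk, aligned them to GRCm39 with STAR 2.7.3a, using Ensembl annotation, and ran htseq-count. The deposited values are raw counts per Ensembl gene and library, with no normalization. The processing notes name HTSeq 0.9.1, while the methods name another version. Symbols, positions and overlaps were taken from a GENCODE annotation of GRCm39, and promoters from RefSeq on GRCm38.p6.

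The groups were compared with edgeR 4.0.16 in R 4.3.3 (TMM, glmQLFit, glmQLFTest, condition as the only term) over genes with a total above 10, with Benjamini-Hochberg adjustment over 19268 genes and a threshold of 0.05. The authors used DESeq2, and DESeq2 1.42.0 was an alternative. The common biological coefficient of variation was 0.281. Reads on no gene (31.3% to 39.9% of kept reads) entered neither sizes nor tests. CPM are TMM-scaled, and n is 5 libraries per group. The labels number them as replicates without naming animals, so p-values measure the spread between libraries. Single genes were also compared by an exact permutation test over 252 relabellings, whose smallest p is 0.0079. The fit was tested on simulated counts.

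Members and lists were chosen with earlier results of these data known, so no set test was run. Genes named are those with an unadjusted p under 0.05, the highest level, and the largest rise and fall among genes with a mean of at least 20 counts per library, in each group of subunits, complex II, isoform pairs, subunits outside the rule, regulators, and the 3 most and least alike the rest. mt-Nd3, Cox7b2 and the genes overlapping members were named after their values were seen. Alternatives were DESeq2, its size factors, filterByExpr, no filter, a robust fit, a fit free of mitochondrial genes, a replicate block, and each library left out in turn. The labels give no batch that differs between libraries.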

Additional observations from a re-analysis of the deposited data

Results flagged for a closer look

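In groups of 5 libraries, the highest or lowest value was set against the gap to its nearest neighbour (Dixon's test, critical value 0.71 of the range). Chance flags about 1 in 20 groups, and 8 of the 128 groups examined (6.25%) were flagged. Low values in 5XFAD replicate 5, the library that was low across the respiratory chain, flagged 3 genes. In it Atp5pd was at 89.996 CPM (120 to 126 in the other 4), Cox7a2l at 29.8 CPM (46.9 to 52.3) and Cox6a2 at 2.92 CPM (9.69 to 12.4). The summed level of the complex V F1 subunits was also lowest there, 1041 CPM against 1191 to 1252. Cox4i1 was high in 5XFAD replicate 2, at 626 CPM (509.7 to 529 in the others), Ndufs7 in 5XFAD replicate 3, at 71.996 CPM (65.1 to 66.2), and Cox8b in 5XFAD replicate 4, at 1.12 CPM (0 to 0.136). The sum of the complex V stalk, membrane and regulatory subunits was low in 5XFAD;Neu cKO replicate 4, at 1804 CPM (1860 to 1881).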

How the results depend on the processing

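With all 10 libraries, the 53 genes of the naming rule were recomputed under 7 alternatives, and with each of 10 libraries left out. Of 878 values, 852 kept their direction and their side of the threshold. With DESeq2 73 genes of the whole table were called, without a filter 103, and the main setting gave 42. Leaving out a library gave 26 to 72 called genes over the whole table, 0 called respiratory chain genes in each case, 56 to 67 estimated lower, and 4 to 17 genes with an unadjusted p under 0.05. The lowest of these, 4, was without 5XFAD replicate 2, where 13 had been found with all libraries. The share of all genes at that p is given only for the main fit (7.95%), so none stands beside these counts. The change of Mylip lay between 0.27 and 0.57.

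Of the 53 genes, directions turned in 8 when a library was left out, and their change was at most 0.14 in size with all libraries. Their ranges were −0.052 to 0.0094 for Cox8a, −0.26 to 0.43 for Cox8b, −0.40 to 0.75 for Ndufa4l2, −0.031 to 0.13 for Ndufa4, −0.20 to 0.26 for Gabpa, −0.25 to 0.063 for Esrra, −0.063 to 0.21 for Nrf1 and −0.10 to 0.050 for Ppargc1a. The cause was not tested.

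Libraries of the groups share replicate numbers. The deviations of same-numbered libraries from their group means had correlations of 0.019, −0.011, −0.0077, 0.0016 and 0.0050, and only replicate 1 was most like its own number. These correlations over all genes tested do not show a pairing and cannot exclude one. The labels do not say whether the numbers pair the samples. With the replicate number as a block, 112 genes were called over the whole table and 1 respiratory chain gene, Sdhd, with a log2 change of 0.88 (adjusted p = 0.0029, edgeR), against adjusted p-values of 0.077 to 0.87 in its other alternatives. Ndufa4l2 turned to 0.56 under the block. Depth limits the 7 genes with the fewest counts.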

Other observations

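Ribosomal protein genes were counted in the same fit, with no test between lists. Of 88 cytosolic ribosomal protein genes, 70 (79.5%, against 50.1% of all genes) were estimated lower in 5XFAD;Neu cKO and 18 higher, with a median of −0.13. An unadjusted p under 0.05 was found for 22 lower (4.01% of all genes) and 2 higher (3.94% of all genes). Rps14, a protein of the small subunit named here after its value was seen, was the 1 gene past adjustment (663 ± 88.1 CPM in 5XFAD, 517 ± 53.9 CPM in 5XFAD;Neu cKO, SD, n = 5, log2 change −0.36, SE 0.08, adjusted p = 0.0283, edgeR). Of 77 mitochondrial ribosomal protein genes, 42 were lower and 35 higher, with a median of −0.0088, and 1 was lower and 1 higher at an unadjusted p under 0.05. The summed level of the cytosolic genes was 12680 to 16086 CPM in 5XFAD and 12024 to 13771 CPM in 5XFAD;Neu cKO, and that of the mitochondrial genes 1490 to 1672 and 1547 to 1655 CPM. Near-identical copies of cytosolic ribosomal protein genes make their counts uncertain.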
